A study of Mus musculus with 2 samples.

Results

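Accessible chromatin was described at 10 genes of eicosanoid metabolism in colonic macrophages: Pla2g2d, Pla2g4a, Ptgs1, Ptgs2, Ptges, Ptger4, Hpgds, Alox5, Alox5ap and Ltc4s, out of 49943 genes in the annotation. The cells were sorted as negative for Siglec-F, low for Ly6C and positive for CD64 from untreated male C57BL/6 mice aged 18.9 weeks. The WT group carried Lyz2-Cre alone, and the group called Tle4cKO carried Tle4f/f with Lyz2-Cre. Both therefore express Cre from the Lyz2 locus, which is active in the myeloid lineage and not in macrophages alone, and they differ in the floxed Tle4 allele, which encodes a Groucho-type corepressor. Each group was 1 ATAC-seq library made from the pooled cells of 2 mice, so no value has a replicate check, no test between genotypes was possible, and every difference describes these libraries. The peaks of a gene were those overlapping its RefSeq span or 10 kb on either side. The genes were chosen with results of these lists known, and Pla2g2d was chosen because its shared peaks were lower in Tle4cKO. Peak number, width, summit and height at these genes are thus given as a description.

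Eicosanoids are lipid mediators made from arachidonic acid, which phospholipases release from membrane lipids. Cyclooxygenases turn arachidonic acid into an unstable prostaglandin intermediate that terminal synthases convert to single prostaglandins, and 5-lipoxygenase with its activating protein starts the separate leukotriene branch. Macrophages are a main source of these mediators, and in the colon prostaglandin E2 is known for supporting the epithelium and for restraining inflammatory cytokines through its receptor EP4. Pla2g2d encodes a secreted phospholipase known from resident antigen-presenting cells and usually described as anti-inflammatory.

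The WT list held 128737 peaks with a median pileup of 28, and the Tle4cKO list 128129 peaks with a median of 20. The pileup is the authors' own value, the fragment coverage at the summit of a peak. A WT and a Tle4cKO peak formed a pair when each was the tallest peak that the other overlapped. The 92328 pairs had a median Tle4cKO to WT pileup ratio of 0.741, and WT had the taller peak in 90.8% of them. The sources used here give no read totals, so each pair was read against pairs of like height. Its relative log2 ratio is the log2 of its Tle4cKO to WT pileup minus the median of that value in its class among 50 classes of summed pileup. A pair was called lower or higher in Tle4cKO when this ratio reached -0.32 or 0.32. All 10 macrophage markers had a peak within 1000 bp of an annotated gene end in both libraries, with a median pileup of 137 in WT and 104.5 in Tle4cKO and summed pileups of 1404 and 1118. Of the 6 mast cell markers, a cell type that shares Hpgds, Ltc4s and Alox5, 1 had such a peak in each library. No peak lay at the ends of Cpa3, Mcpt4, Tpsb2, Ms4a2 and Fcer1a, nor of the eosinophil markers Epx and Prg2, in either library. Such peaks were found at 4 of 4 neutrophil markers in WT and 2 of 4 in Tle4cKO, at 2 of 4 eosinophil and 2 of 4 tuft cell markers in each, at 3 of 4 and 2 of 4 T cell markers, and at all 4 epithelial, B cell and dendritic cell markers in each. The summed gene-end pileups in WT and Tle4cKO were 38 and 27 for mast cell, 116 and 44 for eosinophil, 149 and 97 for neutrophil, 72 and 49 for tuft cell, 268 and 198 for epithelial, 197 and 136 for T cell, 271 and 145 for B cell, and 421 and 348 for dendritic cell markers. Relative to WT the Tle4cKO sum was lower than that of the macrophage markers for all of these types except dendritic cells, and lowest for eosinophil and B cell markers. These sums were not matched for height. The median ratio of pairs itself varied from 0.667 to 0.909 over the classes of summed pileup, so nothing is read from these differences. The part of other cell types in the values below was not tested.

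Over the 10 genes the libraries held 101 peaks each, which formed 86 pairs. Of the WT peaks 14 (13.9%, 95% Wilson interval 8.44% to 21.9%) overlapped no Tle4cKO peak, against 27.1% over the whole list. Of the Tle4cKO peaks 12 (11.9%, 6.93% to 19.6%) overlapped no WT peak, against 23.5%. Among the pairs 12 were lower and 9 higher in Tle4cKO (14.0%, 8.17% to 22.8%, and 10.5%, 5.60% to 18.7%), against 12.0% and 13.0% of all pairs. Of the 12 lower pairs 6 lay at Pla2g2d. Without that gene 6 of 79 pairs were lower and 9 higher, and the median relative log2 ratio was 0.00, the same as over all pairs. The share of pairs past the limit was thus near the background in both directions. Peaks of 1 library were less frequent here than over the lists, in WT and in Tle4cKO alike. These single-library shares were not matched for height. Over the WT list 3.09% of peaks with a pileup of at least 34 were WT-only, so nothing is read from the lower shares. The intervals cover counting error only.

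**Figure D1:**
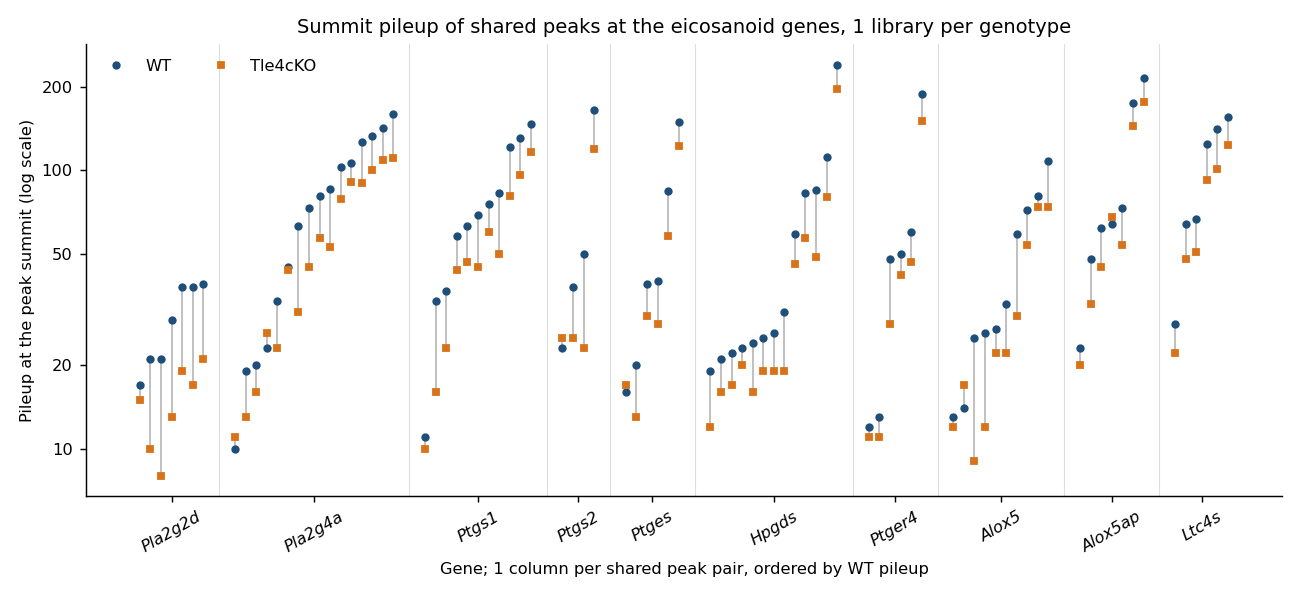
Pileup at the summit (log axis) of each shared peak in the WT library (blue circles) and the Tle4cKO library (orange squares), grouped by gene and ordered by WT pileup within a gene. Pla2g2d had the lowest maximum of the 10 genes, 39 in WT and 21 in Tle4cKO, and Hpgds the highest, 240 and 196.

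Of the 10 genes 9 had an entry among the RefSeq promoter windows of GRCm38.p6, which run from 250 bases before to 50 bases after an annotated start; Alox5ap had none. The window of Pla2g2d (chr4:138775485-138775784, plus strand) is shown because a peak of the Tle4cKO list alone covers its end; the covered bases are in capitals. The windows of Ptgs2 (chr1:150099781-150100080, plus strand), Hpgds (chr6:65144681-65144980, minus strand) and Ltc4s (chr11:50238483-50238782, minus strand) are shown because they lie under strong peaks of both libraries and hold letters of myeloid or inducible elements, which are in capitals. All are written 5′ to 3′ along the gene.
Pla2g2d: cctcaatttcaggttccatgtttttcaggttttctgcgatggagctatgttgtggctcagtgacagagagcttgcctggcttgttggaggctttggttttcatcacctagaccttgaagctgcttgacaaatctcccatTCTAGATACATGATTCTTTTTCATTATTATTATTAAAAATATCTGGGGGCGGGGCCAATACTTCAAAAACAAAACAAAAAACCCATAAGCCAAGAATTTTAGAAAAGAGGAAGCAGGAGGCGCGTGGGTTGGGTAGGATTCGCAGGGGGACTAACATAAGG
Ptgs2: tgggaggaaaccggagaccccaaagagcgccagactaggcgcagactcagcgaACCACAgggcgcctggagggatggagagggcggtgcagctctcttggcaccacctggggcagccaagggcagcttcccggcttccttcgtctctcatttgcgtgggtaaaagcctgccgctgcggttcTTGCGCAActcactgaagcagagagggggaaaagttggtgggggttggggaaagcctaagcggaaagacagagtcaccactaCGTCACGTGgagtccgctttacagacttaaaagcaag
Hpgds: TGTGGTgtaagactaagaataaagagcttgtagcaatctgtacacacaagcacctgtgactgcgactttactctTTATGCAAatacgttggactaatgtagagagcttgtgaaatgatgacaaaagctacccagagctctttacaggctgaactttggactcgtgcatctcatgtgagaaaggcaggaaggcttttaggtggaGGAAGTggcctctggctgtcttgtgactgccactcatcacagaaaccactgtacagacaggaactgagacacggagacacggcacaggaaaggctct
Ltc4s: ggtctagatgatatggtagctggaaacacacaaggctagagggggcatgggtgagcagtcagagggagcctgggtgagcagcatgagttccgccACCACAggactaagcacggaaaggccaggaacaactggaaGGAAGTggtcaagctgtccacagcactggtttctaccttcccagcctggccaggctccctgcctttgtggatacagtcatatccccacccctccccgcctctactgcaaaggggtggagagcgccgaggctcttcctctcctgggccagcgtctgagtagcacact
The Pla2g2d window had a GC content of 43.0% with 5 CpG dinucleotides, below the medians of 52.7% and 7 over 32851 windows. Ptgs2 had 59.3% and 16, Hpgds 46.7% and 5, and Ltc4s 58.7% and 6. Ptger4 had the most CpG of the genes matched, 25 at a GC content of 67.0%. Searched on both strands were PU.1 as GGAAGT, AP-1 as TGANTCA, RUNX as TGTGGT, TCF/LEF as CTTTGA, the E-box CACGTG, C/EBP as TTGCNNAA, the CRE core TGACG and NF-kappaB. The 9 genes have 10 windows, since Pla2g4a has another inside the gene (149922390 to 149922689), with no peak in either library. The PU.1 letters were in 4 of the 10 windows (Ptgs1, Hpgds, Ltc4s and the inner one of Pla2g4a), against 23.8% of all windows, and the RUNX letters in 3 (Ptgs2, Hpgds and Ltc4s), against 16.8%. The C/EBP letters were at Ptgs2 and Hpgds (10.8% of windows). In the Ptgs2 window the E-box and the CRE core overlap, 16 and 13 bases after the annotated start, and 7.15% and 20.8% of windows hold them. AP-1, TCF/LEF and NF-kappaB letters were in none of the members' windows and in 7.81%, 16.0% and 8.46% of all windows. No searched letters were in the Pla2g2d, Ptges, Ptger4 and Alox5 windows. A match is a description of letters and not a bound site.

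Of the phospholipases, Pla2g2d (chromosome 4, 138775735 to 138782052, mm10) had lower shared peaks in Tle4cKO over most of its locus. It held 8 WT and 10 Tle4cKO peaks in 7 pairs. The pileup was lower in Tle4cKO in all 7, where WT had the taller peak in 90.8% of all pairs. Upstream of the gene lay 3 pairs, in the span of the long noncoding RNA gene Gm42332. The farthest, at 138765528 to 138766490 in WT, had 29 in WT and 13 in Tle4cKO, a ratio of 0.448. The next, at 138768148 to 138769062, had 38 and 17 (0.447). The nearest, at 138769514 to 138770243, had 39 and 21 (0.538), and was the tallest peak of the locus in both libraries. All 3 were lower than pairs of like pileup, with relative log2 ratios of -0.66, -0.58 and -0.33. The last of these lay just past the limit of -0.32.

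Inside Pla2g2d the peaks were small and did not follow each other as closely. The pair at 138777945 to 138778170 had 17 in WT and 15 in Tle4cKO, and it was the 1 pair of the 7 above pairs of like pileup, at 0.26. The pair at 138778813 to 138779492 had 21 and 10, with a relative log2 ratio of -0.60. Of the peaks found in 1 library, a WT peak of pileup 11 lay at 138777175 to 138777709, 190 bp from the nearest Tle4cKO peak. In Tle4cKO a peak of pileup 13 lay across the annotated start at 138775624 to 138776196, 979 bp from the nearest WT peak, and another of pileup 10 lay at 138780283 to 138780549. The WT list held no peak in the promoter window shown above. These peaks lie in the span of the long noncoding RNA gene Gm32871 as well, and the lists do not tell the genes apart.

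Beyond the far end of Pla2g2d lay 2 pairs, both lower in Tle4cKO. That at 138784368 to 138785338 had 38 in WT and 19 in Tle4cKO (-0.46). That at 138785728 to 138786528 had 21 and 8 (-1.01), 2.01-fold below pairs of like pileup. Of the 6 lower pairs of the locus, 3 lay upstream of the gene, 1 inside it and 2 beyond its far end.

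Together 6 of the 7 pairs at Pla2g2d were lower and 0 higher. Among the 28334 pairs with a summed pileup in the same range, 29 to 60, 20.8% were lower and 21.2% higher. Since Pla2g2d was chosen on these values, nothing is read from the difference. The median relative log2 ratio was -0.58, 1.49-fold below pairs of like pileup. No single pair had an exact Clopper-Pearson interval that left out the ratio of pairs of like pileup. That of the most lowered, with 21 and 8, ran from 0.146 to 0.895 around 0.765. Summed over the 7 pairs the pileup was 203 in WT and 103 in Tle4cKO, a ratio of 0.507 (0.396 to 0.646), where pairs of like pileup would give 0.700. This sum is of the values for which the gene was chosen, and nothing is read from it. A pileup is a maximum over a peak, so these intervals are approximate. Over all its peaks, single-library ones included, Pla2g2d had a summed pileup of 214 in WT over 5821 bp and 138 in Tle4cKO over 5644 bp, with a mean of 26.8 and 13.8 per peak. Relative to the median gene the log2 ratio of these sums was -0.24. On this measure Ptgs2 (-0.39), Ptger4 (-0.37) and Alox5 (-0.29) were lower than Pla2g2d, and the remaining members were above it. Within the gene span alone 1 of 2 pairs was lower, and the median was -0.17. The summed gene-end pileups of B cell markers, 271 and 145, and of eosinophil markers, 116 and 44, were also lower in Tle4cKO. So were those of every other marker list, and none was matched for height. The eosinophil markers Epx and Prg2 had no gene-end peak in either library. The part of these cell types in the values at Pla2g2d was not tested.

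**Figure D2:**
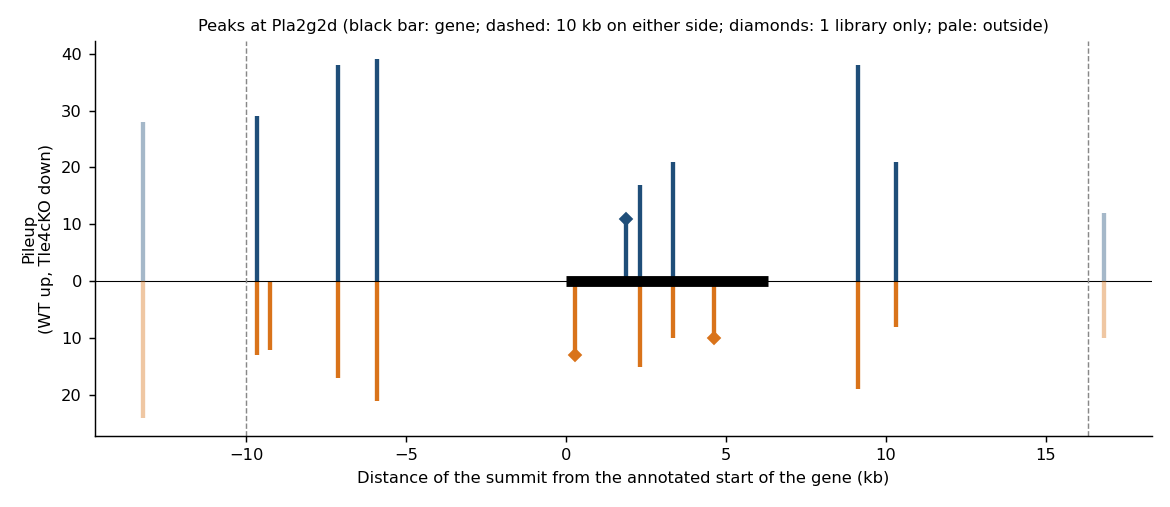
Summit pileup of the peaks at Pla2g2d, WT upward and Tle4cKO downward, against distance in kb from the annotated start; the black bar is the gene, dashed lines mark 10 kb on either side, diamonds mark peaks found in 1 library and pale lines are pairs beyond the limit. The pairs at 29 and 13, 38 and 17, and 39 and 21 stand upstream and those at 38 and 19 and 21 and 8 downstream, while the peak at the start, 13, is in Tle4cKO alone.

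Pairs just outside the 10 kb were not lower. Pla2g2d was chosen on the pairs inside that limit, so nothing is read from the contrast. On one side the next pair, 12902 bp from the gene, had 28 in WT and 24 in Tle4cKO (0.34), and on the other, at 10356 bp, 12 and 10 (0.00). Of the 9 pairs between 10 and 100 kb from the gene 1 was lower and 4 higher, with a median of 0.27, and of the 8 pairs between 100 and 200 kb 0 were lower and 1 was higher. Pla2g2d lies in a cluster of secreted phospholipase genes. Its neighbour Pla2g5 held 7 pairs, of which 1 was lower and 2 higher, with a median of 0.13; its tallest peak had 70 in WT and 67 in Tle4cKO. Pla2g2e held 2 pairs with a median of 0.26 and 2 WT-only peaks. Pla2g2f held 2 pairs, 1 of them the farthest upstream pair of Pla2g2d, and Pla2g2a, a pseudogene in this annotation, held no peak. Among the 3888 protein-coding genes with at least 7 pairs, Pla2g2d had the third lowest median, rank 3. The limit of 7 is the number of pairs at Pla2g2d itself. The gene was chosen on these values, so nothing is read from the rank. The genes nearest to Pla2g2d in median were Arhgap6 (-0.60), Tlr7 (-0.61) and Mid1 (-0.50), all on the X chromosome. Likeness here is the difference of medians over 2 libraries, and says nothing of shared function.

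**Figure D3:**
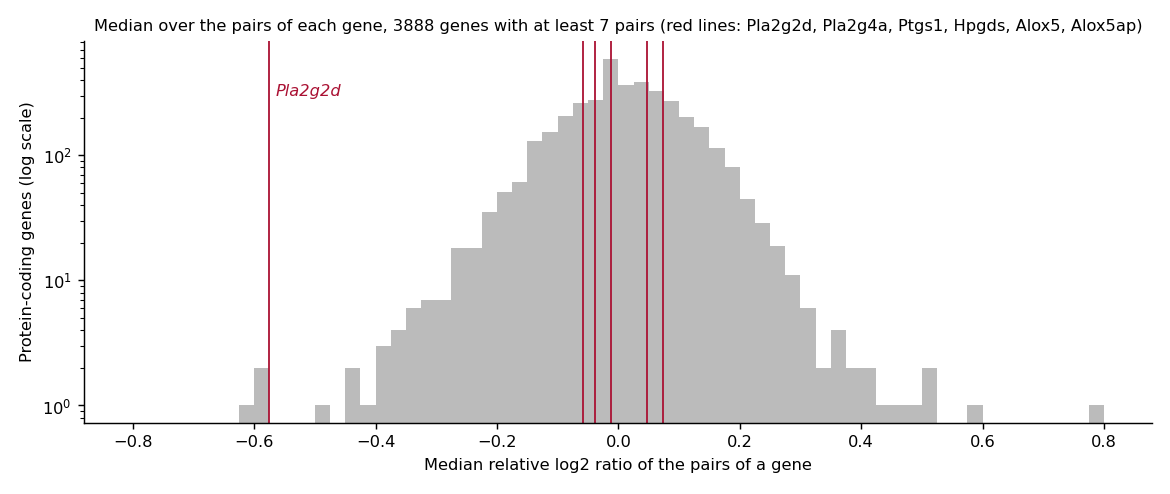
Number of protein-coding genes (log axis) by the median relative log2 ratio of their pairs, for the 3888 genes with at least 7 pairs; red lines are the 6 members among them. Pla2g2d stands at -0.58, and Pla2g4a, Ptgs1, Hpgds, Alox5 and Alox5ap between -0.06 and 0.07. Pla2g2d was chosen on these values, so nothing is read from its place.

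Pla2g4a, the cytosolic phospholipase that releases arachidonic acid on activation (chromosome 1, 149829618 to 149961290), had peaks spread along its length in both libraries, covering 17077 bp in WT and 16239 bp in Tle4cKO with its flanks. It held 19 WT and 22 Tle4cKO peaks in 16 pairs, of which 1 was lower and 2 higher, and the median of their relative log2 ratios was -0.01. The peak over its annotated start, at 149960472 to 149961969, had 159 in WT and 111 in Tle4cKO (-0.16). A peak far inside the gene, at 149840234 to 149842389, was nearly as tall, with 142 and 109 (-0.01). These tallest peaks were thus close to pairs of like pileup. The lower pair, at 149923433 to 149924882, had 63 and 31 (-0.48), and the higher ones, at 149832804 to 149833459 and 149856364 to 149857445, had 23 and 26 (0.69) and 45 and 44 (0.50). Pla2g4a held the most Tle4cKO-only peaks of the 10 genes, 6 beside 3 WT-only. The strongest, at 149955487 to 149955909 and 149939130 to 149939416, had pileups of 27 and 22 and lay 942 and 125 bp from a WT peak, and the other 4 had 9 to 12. The WT-only peaks had 9 to 11.

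Of the cyclooxygenases, Ptgs1, the constitutive form (chromosome 2, 36216742 to 36258593), was close to pairs of like pileup. Its 13 WT and 11 Tle4cKO peaks formed 11 pairs with a median of -0.06. The promoter peak, at 36230130 to 36231524, had 131 in WT and 96 in Tle4cKO (-0.06), and the tallest peak, inside the gene at 36234298 to 36235412, had 147 and 116 (0.02) with the summit at the same base. Of the 11 pairs 1 was lower, at 36242943 to 36243758 with 34 and 16 (-0.57), and 0 were higher. The 2 WT-only peaks had pileups of 9 and 10.

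Ptgs2, the inducible cyclooxygenase COX-2 (chromosome 1, 150100031 to 150108234), had a tall promoter peak in both libraries and 2 peaks inside the gene in WT alone. The promoter peak, over the window shown above and the overlapping antisense gene Ptgs2os, had 165 in WT and 119 in Tle4cKO (-0.15). The 2 WT-only peaks lay at 150104206 to 150104444 and 150105412 to 150105635, with pileups of 54 and 34 and widths of 239 and 224 bp. They were 3669 and 2884 bp from the nearest Tle4cKO peak, and counted as WT-only also when peaks within 500 bp were taken as shared. Among WT peaks whose pileup reached 34, 3.09% were WT-only, and among those that reached 54, 1.15%. WT peaks at or above these pileups were thus seldom without a partner. These classes have no upper limit and include much taller peaks, so the share among peaks of like height was not taken. The limits are the pileups of these 2 peaks, and width was not matched, where the median WT peak was 671 bp wide. Around the far end of the gene a single WT peak, at 150108277 to 150109729 with 50, overlapped 2 Tle4cKO peaks with 20 and 23. The pair it formed was lower (-0.59). A peak beyond it, at 150114977 to 150115917, was higher, with 23 in WT and 25 in Tle4cKO (0.68). Over all 4 pairs the median was -0.10.

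**Figure D4:**
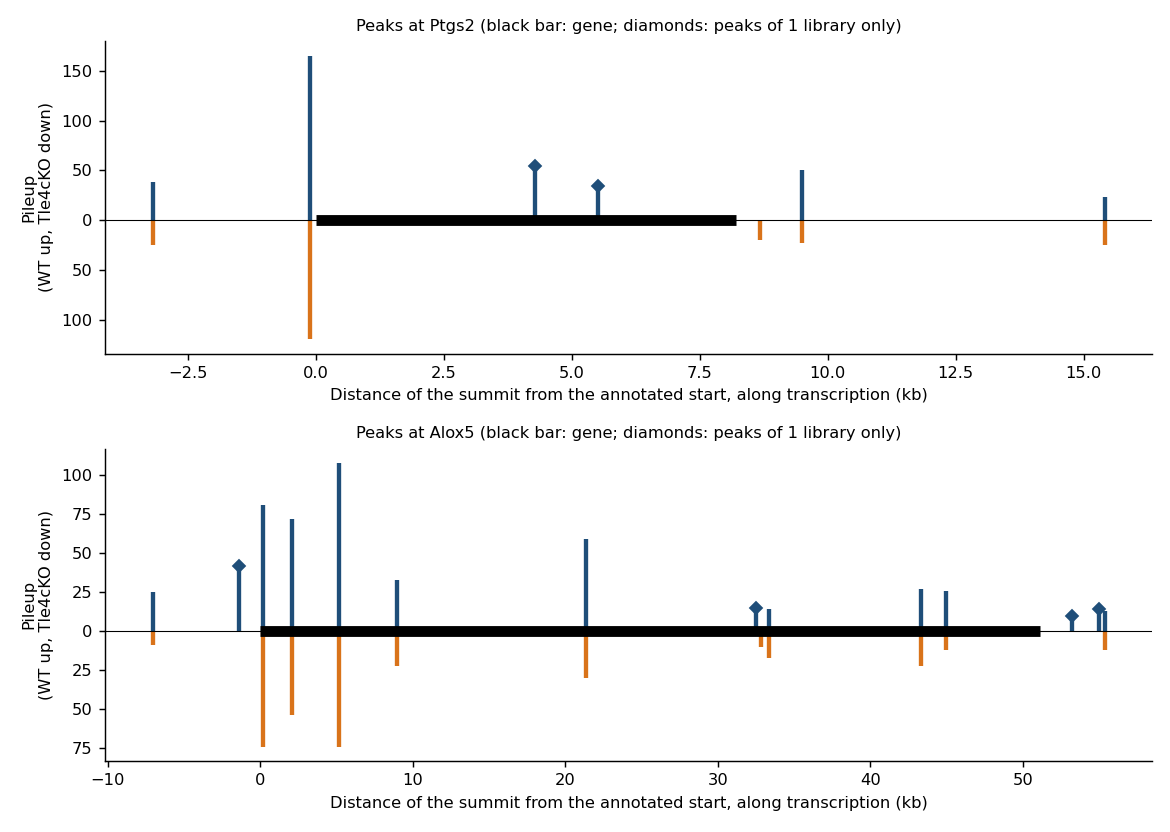
Summit pileup of the peaks at Ptgs2 (top) and Alox5 (bottom), WT upward and Tle4cKO downward, against distance in kb from the annotated start along transcription; black bars are the genes and diamonds mark peaks found in 1 library. At Ptgs2 the 2 WT-only peaks of 54 and 34 lie inside the gene, and at Alox5 the WT-only peak of 42 lies upstream of the start.

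The terminal synthases and the receptor had tall peaks in both libraries. Ptges encodes the inducible prostaglandin E synthase (chromosome 2, 30889471 to 30931020). It had no peak over its promoter window in either library, and its tallest peak lay near the upper end of the annotated span at 30928137 to 30930212, with 149 in WT and 122 in Tle4cKO (0.07). Of its 6 pairs 0 were lower and 1, at 30920028 to 30920605 with 16 and 17, was higher (0.53); 2 WT-only peaks had 11 and 17. Hpgds encodes the haematopoietic prostaglandin D synthase (chromosome 6, 65117293 to 65144981) and had the tallest peak of all 10 genes, over its start at 65144270 to 65145521, with 240 in WT and 196 in Tle4cKO (-0.06). Its summit differed by 6 bp between the libraries. Of its 13 pairs 0 were lower and 1 was higher, at 65150667 to 65151188 with 23 and 20. That pair, at 0.33, lay just past the limit, and a pair with 85 and 49 (-0.29) just within it. Hpgds held 2 Tle4cKO-only peaks, with 11 and 12, and 0 WT-only.

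Ptger4, the prostaglandin E2 receptor EP4 (chromosome 15, 5233399 to 5244187), had 188 in WT and 151 in Tle4cKO over its start (-0.03). In WT this region was listed as 2 peaks, the other at 5241978 to 5243220 with 134, and in Tle4cKO as a single peak from 5241994 to 5245092. The Tle4cKO peak was thus 1.86 times as wide as its WT partner. None of the 6 pairs was past the limit in either direction, the nearest being 50 and 42 at 5250025 to 5250723 (0.30). A Tle4cKO-only peak had a pileup of 9.

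In the leukotriene branch, Alox5, which encodes 5-lipoxygenase (chromosome 6, 116410071 to 116461178), had the widest range of relative heights of the 10 genes, -0.96 to 0.75. Its promoter peak, at 116459907 to 116461461, had 81 in WT and 74 in Tle4cKO and stood above pairs of like pileup (0.35). The peak upstream of it, at 116462431 to 116462982 with a pileup of 42, was found in WT alone, 965 bp from the nearest Tle4cKO peak. Farther upstream a pair had 25 and 9 (-0.96), and inside the gene a broad pair at 116438656 to 116441070 had 59 and 30 (-0.45). The upstream pair was called lower and the promoter pair higher, but the counting interval of each held the ratio of like pairs. The upstream interval was 0.148 to 0.797 around 0.700, and that of the promoter pair 0.657 to 1.27 around 0.717. Nothing is read from their opposite directions. The pair next to the promoter peak inside the gene, at 116458749 to 116459528 with 72 and 54 (0.09), lay within the limits. Of the 10 pairs 3 were lower and 2 higher, and the median was 0.05. Alox5 held the most WT-only peaks of the 10 genes, 4 beside 0 Tle4cKO-only, the other 3 with pileups of 10 to 15. Of these, 2 lay in the span of the neighbouring gene Marchf8.

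Alox5ap encodes FLAP, the membrane protein that 5-lipoxygenase needs in cells (chromosome 5, 149265004 to 149288153), and was the 1 gene of the 10 with a single pair outside counting error. The pair at its lower-coordinate end, at 149264709 to 149265326, had 64 in WT and 68 in Tle4cKO, a ratio of 1.06 (0.744 to 1.52), where pairs of like pileup had 0.704. Its relative log2 ratio was 0.59. Of all pairs 0.696% had an interval above the ratio of like pairs and 0.633% an interval below it, and of the 86 pairs here 1 and 0, so a single such pair is near the background. The tallest peaks, inside the gene at 149266493 to 149268095 and 149274307 to 149275551, had 214 and 176 (-0.05) and 174 and 144 (0.04). Of the 7 pairs 0 were lower and 2 higher. Ltc4s, the leukotriene C4 synthase gene (chromosome 11, 50236461 to 50238532), was the most alike between the libraries. Its 6 WT and 6 Tle4cKO peaks all paired, with relative log2 ratios of -0.11 to 0.17. The promoter peak, at 50237888 to 50239561, had 155 in WT and 123 in Tle4cKO (-0.01).

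**Figure D5:**
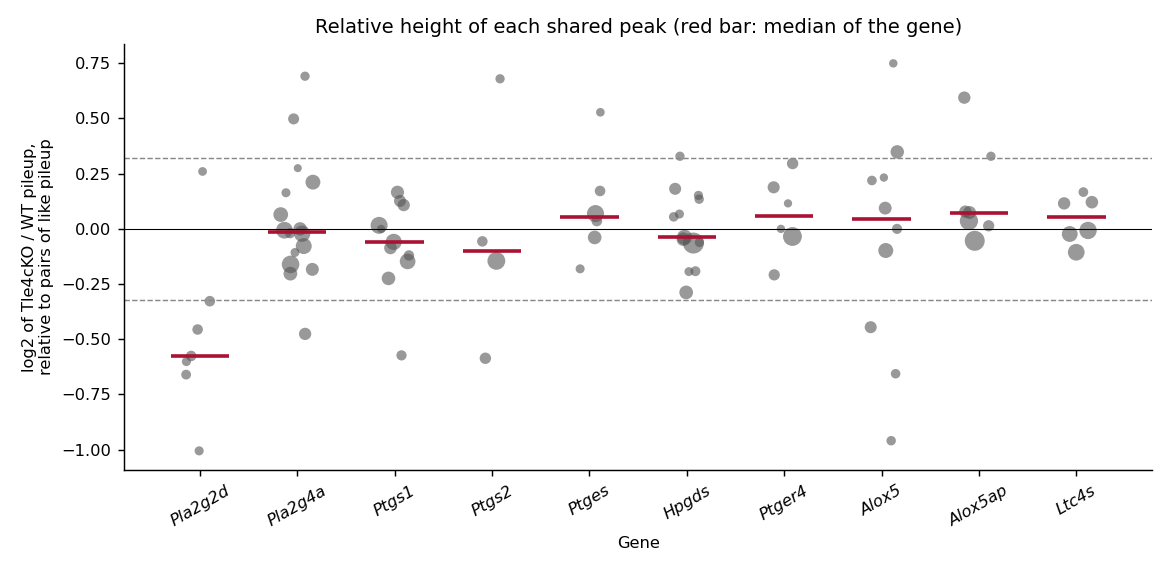
Relative log2 ratio of each shared peak (log2 of Tle4cKO to WT pileup minus that of pairs of like pileup) by gene; larger dots have a higher WT pileup, red bars are medians and dashed lines mark the limits of -0.32 and 0.32. Of the 7 dots at Pla2g2d 6 lie below the lower limit, and the medians of the other 9 genes lie between -0.10 and 0.07.

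Widths and summits of the pairs were close to those of the lists. The median Tle4cKO to WT width ratio was 0.955 over the 86 pairs and 0.931 over all pairs, and the median distance between summits was 34 and 44 bp. By gene the width ratio was lowest at Ptger4 (0.656) and Ptgs2 (0.757), and highest at Ptgs1 (1.03). At Pla2g2d the median was 0.989, but single pairs ran from 0.221 to 1.68. The lowest was the farthest upstream pair, where the WT peak also overlapped a Tle4cKO peak of pileup 12 outside the pair.

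A list of 58 other genes of the pathway was compared in the same way, and 55 had at least 1 pair. Of their 316 pairs 31 were lower (9.81%, with an upper bound of 13.6%) and 45 higher (14.2%, 10.8% to 18.5%), against the background of 12.0% and 13.0%, and their median relative log2 ratio was 0.00. The counting intervals of these shares held the background values. WT-only were 83 of 405 WT peaks (20.5%, 16.8% to 24.7%) and Tle4cKO-only 63 of 403 Tle4cKO peaks (15.6%, 12.4% to 19.5%), both below the shares over the lists, as at the members. Here too the shares were not matched for height. Among other phospholipases Pla2g7, which encodes the platelet-activating factor hydrolase of plasma, held 12 pairs with 0 lower, 1 higher and a median of 0.00. Among synthases the constitutive Ptges2 and Ptges3 had gene-end peaks of 159 in WT and 126 in Tle4cKO, and of 169 and 145. Tbxas1, the thromboxane synthase, held 10 WT-only and 2 Tle4cKO-only peaks; of its 30 pairs 4 were lower and 3 higher. The prostacyclin synthase Ptgis held 8 pairs with a median of -0.12, and the lipocalin-type prostaglandin D synthase Ptgds 3 with a median of -0.02.

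Of the other receptors Ptger2, the prostaglandin E2 receptor EP2, had gene-end pileups of 133 in WT and 100 in Tle4cKO and no pair past the limit among 5. Ltb4r1, the high-affinity leukotriene B4 receptor, had gene-end pileups of 145 and 118, the same values as its neighbour Ltb4r2. Over its promoter window Ltb4r1 had 61 and 54. Cysltr1, a cysteinyl leukotriene receptor, had gene-end pileups of 86 and 74 and no pair past the limit among 3. Hpgd, which inactivates prostaglandins, held 10 pairs, 0 lower and 2 higher. Lta4h, which makes leukotriene B4, had a gene-end peak of 182 and 157, with 2 of 8 pairs lower, and Alox15, the 12/15-lipoxygenase gene, held 7 pairs, 1 lower and 1 higher. Cysltr2, named after its values were seen, was the gene of the list with the largest share of lower pairs among those with at least 4, 3 of 4, with a median of -0.44.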

How the data were processed

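Accessible chromatin was measured by ATAC-seq in 2 libraries, 1 per genotype, each from pooled mice. The authors deposited 1 peak list per library with position, width, summit and pileup. Per the file headers the deposited signal is the pileup at the summit; its values are whole numbers of at least 7. Widths and summits were deposited as other values, in bp on mm10 and counted from 1. Named without roles in the submitters' processing notes are HOMER 4.7.2, edgeR 3.28.1, MACS2 2.1.1, Bowtie2 2.2.5, featureCounts 1.5.0, cutadapt 1.14 and mm10. Which calling thresholds, read shifts, duplicate handling and scaling were applied is not given in the sources used here. Lower depth in 1 library would lower pileups, narrow peaks and leave weak peaks uncalled.

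Peaks overlapping by at least 1 bp were shared; pairs, the relative log2 ratio and its limit are defined in the text. Gene spans, without strand or exons, and promoter windows came from RefSeq tables of GRCm38.p6, which underlies mm10. Steps ran in Python 3.11.15 with pandas 2.3.3, numpy 2.4.6 and scipy 1.17.1, and were tested on simulated data. The changed pairs there were drawn from pairs taller in WT than any at Pla2g2d, and were changed by more than the limit used. Calls on lower pairs or near the limit were not tested. The genes, lists and rules were chosen with earlier results of these data known. Named genes were the 10 members, 16 pathway genes chosen for role or place, and the 3 genes nearest to Pla2g2d in median; Cysltr2 was added after its values were seen. Alternatives varied the flank, overlap, pileup minimum, reference ratio and fold.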

Additional observations from a re-analysis of the deposited data

How the results depend on the processing

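With 1 library per genotype, none of the differences can be told from the spread between mice or libraries, and weak peaks limit the counts of peaks found in 1 library. The 14 WT-only and 12 Tle4cKO-only peaks became 5 and 2 with a pileup of at least 15, 3 and 2 with at least 20, and 38 and 25 with 50 kb on either side; the WT-only count was 32 when 50% of a peak had to be covered. The 12 lower and 9 higher pairs became 6 and 4 at a 1.5-fold limit and 26 and 18 with 50 kb on either side. The lower pairs were 5 within gene spans and 7 when 50% of both peaks had to overlap. At Pla2g2d the 6 lower pairs became 3 at the 1.5-fold limit and 1 within the gene span, where the median was -0.17. Its median was below 0 under all the other alternatives run, from -0.24 with summed pileups of all peaks to -0.64 with 1 reference ratio for all pairs, and -17.6 percentile points by rank. Of 72 alternative medians of the other 9 genes on the log2 scale, 68 stayed within counting error of the first value; Ptgs2 (0.27 with 50% overlap, -0.39 with summed pileups), Ptger4 (-0.37) and Alox5 (-0.29), the last 2 with summed pileups, did not. With summed pileups Ptgs2, Ptger4 and Alox5 all lay below Pla2g2d, so Pla2g2d was not the lowest member by that measure. Summed pileups also count peaks of 1 library and peaks split in 1 library. No paired analysis was possible because each group has a single library.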

Other observations

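Pla2g4a and Ptgs2, the cytosolic phospholipase and the inducible cyclooxygenase, lie side by side on chromosome 1, 138.7 kb apart. Between their flanks, over 118.7 kb, the WT list held 9 and the Tle4cKO list 6 peaks, in 5 pairs. The pair 84.5 kb from the start of Ptgs2, at 150014977 to 150016094, had a summit pileup of 30 in WT and 11 in Tle4cKO, with a relative log2 ratio of -0.95. Nearer to Ptgs2, at 150064214 to 150065395, a pair had 19 and 10 (-0.54). On the side of Pla2g4a, at 149979376 to 149980624, a pair had 46 and 25 (-0.35). Of the 5 pairs these 3 were lower, 0 were higher, and the median was -0.35. Over all pairs 12.0% were lower and 13.0% higher. Among pairs with a summed pileup of 29 to 60, the range of the Pla2g2d pairs, the shares were 20.8% and 21.2%. The pair with 46 and 25 lies above that range. The interval also held 4 WT-only peaks and 1 Tle4cKO-only peak, all with pileups of at most 14, where 27.1% of all WT and 23.5% of all Tle4cKO peaks were in 1 list only. This interval was looked at after the values of both genes were seen, and its pairs have no replicate check.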
